A study of Mus musculus with 2 samples.

Results

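The 10 genes described here, Hk1, Hk2, Gpi1, Pfkl, Aldoa, Gapdh, Eno1, Ldha, Pklr and Bpgm, encode enzymes of glycolysis and of red cell energy metabolism, and were taken by name from 21911 protein-coding genes of GENCODE vM21 on mm10 (GRCm38). Open chromatin was measured by DNase-seq, which maps where DNase I cuts DNA that is not packed in nucleosomes. The tissue was spleen of male B6CASTF1/J mice, first-generation hybrids of C57BL/6J and CAST/EiJ parents, aged 4 days and with no treatment named. There were 2 libraries, replicates 1 and 2 of 1 group, given as biological replicates with different male numbers in the labels, so every value is a description of that group and no test between conditions was possible. For each library the authors deposited a longer and a stricter list of peaks with a signal per peak, and a list of footprints, short stretches inside open chromatin that are protected from the enzyme.

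Glycolysis splits glucose to pyruvate and yields ATP. A mature red cell has no mitochondria and lives on this pathway, and in it Bpgm diverts an intermediate to 2,3-bisphosphoglycerate, which lowers the oxygen affinity of haemoglobin. Most steps are catalysed by several isozymes, and the pyruvate kinase gene Pklr and the hexokinase gene Hk1 have alternative first exons, one of which is used by red cells. The spleen of the newborn mouse still makes red cells.

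A region was called shared where peaks of both longer lists overlapped by at least 1 bp, and a promoter was called open where a shared region lay within 1 kb of any annotated start site. All 10 promoters were open by this rule, against 61.5% of all protein-coding genes, and all 10 were open in the stricter lists, against 56.4%. The genes have 4 to 13 annotated start sites each, with a median of 10 against 3 for all genes, and among the 10127 genes with at least 4 start sites 84.7% were open. All 10 had a footprint of both libraries within 1 kb of a start site, against 58.2% of all genes. Footprints lie inside open chromatin, and over all genes 12753 had such a footprint where 13470 had an open promoter. The footprint count therefore adds little to the count of open promoters. Of their 91 start sites 67 had a shared region within 1 kb, against 51.5% of all 93504 start sites, 3 had a peak of 1 library and 21 had none in either. The 67 lay near 28 shared regions, since neighbouring start sites often have the same region, so they are not separate findings.

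Replicate 1 held 80323 peaks with a median signal of 0.796, and replicate 2 held 88723 with a median of 0.650. The scale of the signal is not stated and read totals were not used here. Depth is therefore unknown, and values of the libraries are set side by side as deposited. Over all 60596 shared regions the median ratio of replicate 1 to replicate 2 was 1.12. Promoters were open for 8 of 8 erythroid, 5 of 5 B cell and 3 of 4 T cell markers, with Cd3e without a peak. They were open for 1 of 5 macrophage, 2 of 4 neutrophil, 1 of 3 megakaryocyte, 2 of 3 endothelial, 0 of 3 spleen stroma, 1 of 4 hepatocyte, 1 of 3 skeletal muscle and 1 of 3 neuron markers. Over all protein-coding genes 61.5% were open. In the stricter lists the counts were 2 for T cell, 0 for macrophage, 1 for neutrophil and 1 for endothelial markers, and otherwise the same. The highest signal of any erythroid marker was 20.8 in replicate 1 and 16 in replicate 2. The highest was 11.3 and 9.54 in the megakaryocyte list, 10.6 and 7.52 in the T cell list, and 4.75 and 5.05 in the B cell list. The part of each cell type in the values below was not tested, and in whole tissue a rarer cell type and a less open site in each cell cannot be told apart.

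The stretches of sequence on which the account of single genes turns are shown first, because they include the bases just before the 2 first exons of Pklr and before a weaker alternative start of Hk1, and open regions outside the main promoters of Bpgm and Gpi1. All are GRCm38 reference sequence, which may differ from the CAST/EiJ allele of these hybrids, and each is written 5′ to 3′ on the strand of its gene. Capitals mark bases inside a footprint in both libraries. In order, they are the region 3.62 kb upstream of Pklr (chr3:89132381-89132660, + strand), 150 bases before the upstream start of Pklr (chr3:89135992-89136141, +), and 150 bases before its downstream start (chr3:89136422-89136571, +). Then come 118 bases before the Hk1-205 start (chr10:62342723-62342840, - strand), the region 4.54 kb upstream of Bpgm (chr6:34471581-34471760, +), and 150 bases before the Bpgm start (chr6:34476057-34476206, +). The last are the region 3.83 kb upstream of Gpi1 (chr7:34234041-34234300, -) and 150 bases before the Ldha-202 start (chr7:46845689-46845838, +).
Pklr upstream region: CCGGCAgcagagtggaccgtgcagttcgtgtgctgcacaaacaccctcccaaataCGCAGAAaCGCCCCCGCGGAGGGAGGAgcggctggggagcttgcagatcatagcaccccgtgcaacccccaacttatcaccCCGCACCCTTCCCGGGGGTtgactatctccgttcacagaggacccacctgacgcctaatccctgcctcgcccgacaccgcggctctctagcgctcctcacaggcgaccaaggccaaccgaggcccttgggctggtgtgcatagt
Pklr before the upstream start: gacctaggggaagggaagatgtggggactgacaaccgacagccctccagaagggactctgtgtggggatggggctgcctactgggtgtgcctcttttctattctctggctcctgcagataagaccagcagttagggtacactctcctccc
Pklr before the downstream start: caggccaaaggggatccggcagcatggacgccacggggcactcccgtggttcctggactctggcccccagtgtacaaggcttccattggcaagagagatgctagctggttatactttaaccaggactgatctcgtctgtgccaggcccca
Hk1 before the Hk1-205 start: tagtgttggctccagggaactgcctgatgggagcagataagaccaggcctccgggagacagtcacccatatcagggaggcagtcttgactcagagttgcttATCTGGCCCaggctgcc
Bpgm upstream region: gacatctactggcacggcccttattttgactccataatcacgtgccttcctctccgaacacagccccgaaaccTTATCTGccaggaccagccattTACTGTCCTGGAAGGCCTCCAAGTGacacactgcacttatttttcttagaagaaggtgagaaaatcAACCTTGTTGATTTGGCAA
Bpgm before the start: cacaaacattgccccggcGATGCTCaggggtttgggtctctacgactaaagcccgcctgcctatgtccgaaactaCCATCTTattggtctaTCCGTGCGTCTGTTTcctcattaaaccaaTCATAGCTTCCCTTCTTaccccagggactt
Gpi1 upstream region: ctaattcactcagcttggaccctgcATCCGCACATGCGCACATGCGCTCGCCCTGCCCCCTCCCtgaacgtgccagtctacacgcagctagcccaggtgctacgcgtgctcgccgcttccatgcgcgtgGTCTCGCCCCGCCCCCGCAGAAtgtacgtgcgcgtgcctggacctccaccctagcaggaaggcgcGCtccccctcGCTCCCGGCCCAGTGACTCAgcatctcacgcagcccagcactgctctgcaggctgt
Ldha before the Ldha-202 start: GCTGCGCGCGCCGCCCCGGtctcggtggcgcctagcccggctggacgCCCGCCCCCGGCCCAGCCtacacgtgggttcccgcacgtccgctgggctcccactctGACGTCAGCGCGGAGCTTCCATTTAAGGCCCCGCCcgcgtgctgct

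Promoter signal, the strongest peak within 1 kb of any start site, spanned 14.6 times from the highest to the lowest of the 10 genes by the mean of both libraries. Hk1, Pfkl and Bpgm stood at the top, Eno1, Aldoa and Gapdh followed, Ldha lay in the middle of all promoters with a peak, and Gpi1, Hk2 and Pklr were low. The median was 10.3 in replicate 1 and 9.21 in replicate 2, against 1.29 and 1.17 over all protein-coding genes, those without a peak counted as 0. The second pair is lowered by 7275 genes with no promoter peak in either library. Among genes with a promoter peak, 7 of the 10 were above the 50th percentile in both libraries and 3 were below it in both. The strongest peak is also taken over more start sites here, a median of 10 against 3. In rank, 8 of the 10 genes held the same place in both libraries, and Hk1 and Bpgm exchanged the first and the third. The signal was higher in replicate 1 for 9 genes and higher in replicate 2 for Bpgm. Replicate 1 was also higher over all shared regions, with a median ratio of 1.12. Centred on that median, the log2 ratio of the strongest promoter region was below 0 in Bpgm (-0.32), Aldoa (-0.094) and Eno1 (-0.038). It was above 0 in the other genes.

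**Figure D1:**
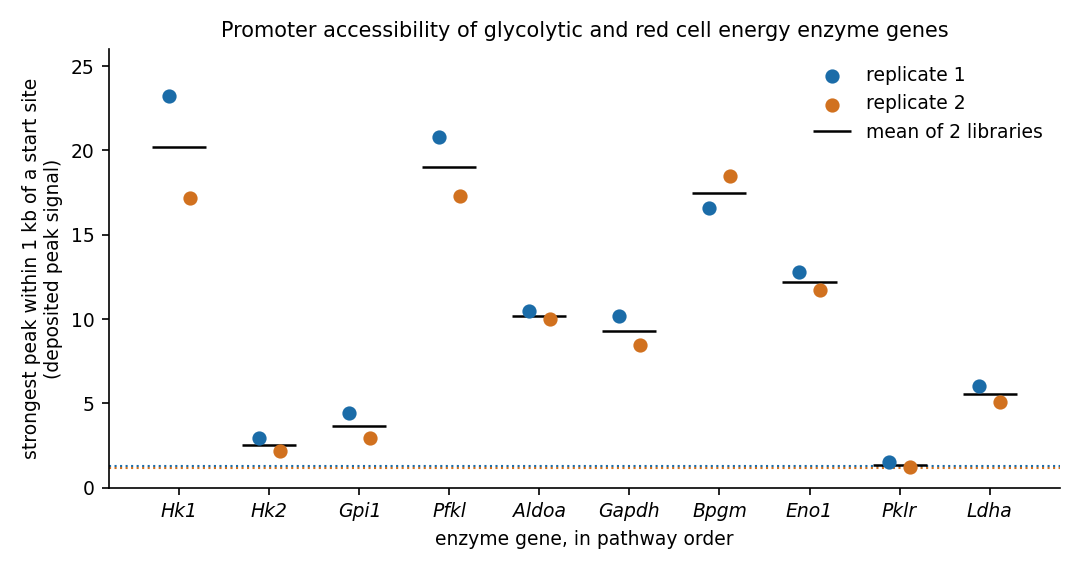
Strongest deposited peak signal within 1 kb of a start site (vertical axis) for each gene in pathway order, with 1 point per library and a bar at the mean, and dotted lines at the median over all protein-coding genes in each library. Hk1, Pfkl and Bpgm lie at 16.6 to 23.2, and Pklr at 1.21 to 1.56 is next to the dotted lines.

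Hexokinase traps glucose in the cell as glucose 6-phosphate, and Hk1 is the isozyme of red cells and brain. Its strongest promoter peak had a signal of 23.2 in replicate 1 and 17.2 in replicate 2 (20.2 ± 4.26, SD, n = 2). That placed it at the 96.6th and 94.0th percentile of genes with a promoter peak in each library. The gene (ENSMUSG00000037012.18, chr10:62268855-62379908, - strand) has 12 start sites, of which 5 were open and 6 had no peak in either library. The peak lay at chr10:62340141-62340300, 242 to 401 bp downstream of the Hk1-202 start, and overlapped an exon of the gene. Hk1-202 codes for 918 amino acids, and a further region over its start, chr10:62340381-62340660, had signals of 9.51 and 7.95.

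The starts upstream of Hk1-202 were less open or without a shared region. Hk1-205, which codes for 917 amino acids, starts 37.2 kb downstream of the most upstream start, where Hk1-202 starts 39.4 kb downstream of it. A shared region of 260 bp over the Hk1-205 start had signals of 2.22 and 1.73 (1.97 ± 0.341) and was in both stricter lists. In human, the red cell form of HK1 begins at an exon shortly before the one used in most tissues, but the annotation does not say which mouse transcript is the red cell form. Hk1-203 and Hk1-201, which code for 945 amino acids, begin 0 and 21.5 kb from the most upstream start. No shared region lay within 1 kb of either, and Hk1-201 had a peak of replicate 1 alone, with a signal of 1.08. Both libraries listed 0 of the 201 bases within 100 bp of these 2 starts at an FDR under 0.05, and all 201 bases around the Hk1-205 and Hk1-202 starts. Downstream of Hk1-202, the Hk1-212 start had signals of 8.95 and 5.42.

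**Figure D2:**
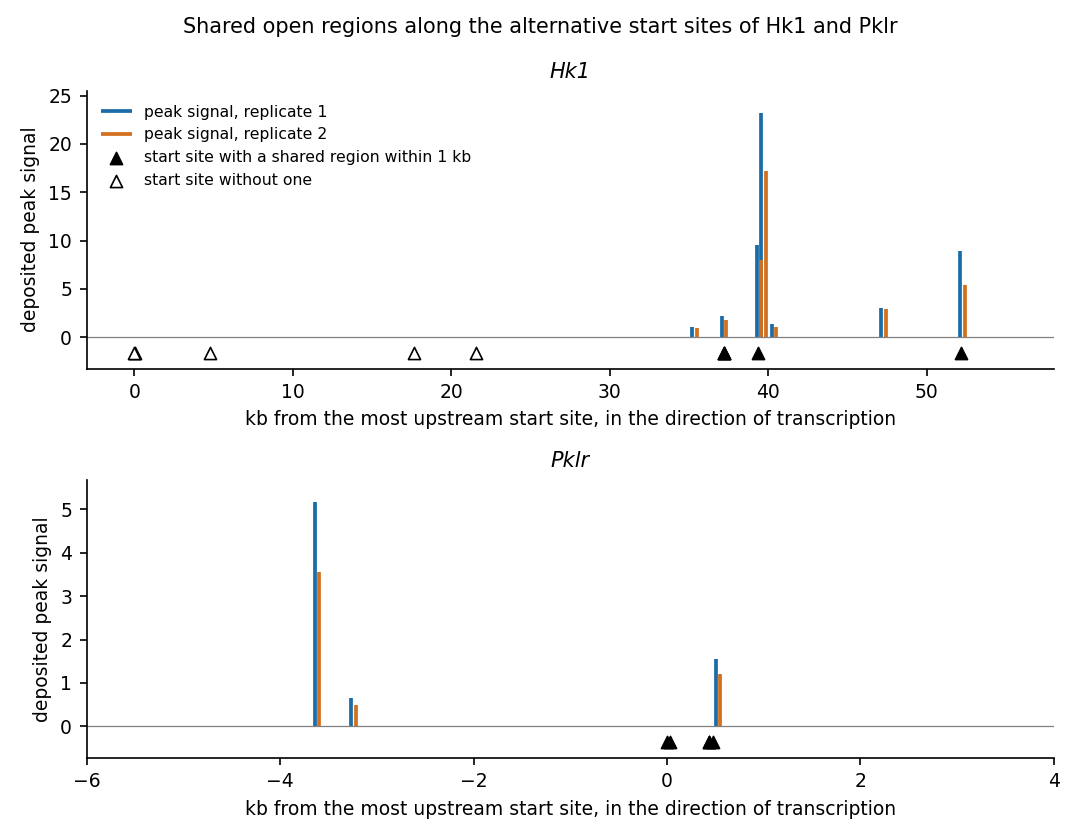
Deposited peak signal of shared regions (vertical axis) against distance in kb from the most upstream start site in the direction of transcription, for Hk1 and Pklr, with lines for the libraries and triangles for start sites (filled with, open without a shared region within 1 kb). In Hk1 the starts at 37.2 kb have a shared region of low signal, and the starts upstream of them are without a shared region within 1 kb. The Hk1 signal is highest just downstream of the start at 39.4 kb. In Pklr the region 3.62 kb upstream is higher than the one at the start sites.

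The 118 bases printed before the Hk1-205 start held 2 matches to the GATA words AGATAA and TGATAA, read on both strands. The first, at bases 35 to 40, had no base footprinted in both libraries. The second, at bases 100 to 105, overlapped by 4 bases the stretch in capitals, which is the part protected in both. GATA factors are the main activators of red cell genes, and a match names letters and not a bound protein. The AP-1 and NF-E2 word TGAGTCA was on the other strand at bases 86 to 92, with no base footprinted in both libraries. For counts, overlapping footprints of the libraries were merged, so a merged footprint can reach beyond the bases protected in both. Of the 77 merged footprints near start sites of the 10 genes, 2 held a GATA word, and both were in Hk1, at the Hk1-205 and Hk1-212 starts. These 2 are 2.60% of the 77, against 0.377% of 66853 merged footprints near all start sites. The word at Hk1-205 is the second match above, with 4 bases protected in both libraries.

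Outside the promoters, the 2 strongest regions of Hk1 were in its introns. The first, chr10:62275321-62275500, had signals of 4.38 and 4.05, and the second, chr10:62332501-62332780, 3.03 and 2.87. Of 9 distal regions, those over 1 kb from the start sites of all protein-coding genes, 6 lay in the gene body. The related gene Hkdc1, whose promoter lies in the same window, had promoter signals of 1.54 and 1.11, and Hk3 had no promoter peak.

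Hk2, the hexokinase of muscle and of growing cells, had a promoter signal of 2.94 in replicate 1 and 2.18 in replicate 2 (2.56 ± 0.536, SD, n = 2). The region, chr6:82774401-82774700, covered the Hk2-201 start, and 3 of the 4 start sites of the gene (ENSMUSG00000000628.10, chr6:82725025-82774454, -) were open. Hk1 and Hk2 did not overlap, with the lower Hk1 value at 17.2 and the higher Hk2 value at 2.94. A distal region in an intron of the neighbour Pole4, chr6:82702821-82703000, had signals of 4.84 and 4.07, above the Hk2 promoter in both libraries. The next, chr6:82714341-82714500, was higher in replicate 2, with 1.46 and 1.95.

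Gpi1, which turns glucose 6-phosphate into fructose 6-phosphate, had signals of 4.41 and 2.98 (3.69 ± 1.01, SD, n = 2) at chr7:34230181-34230460, over the Gpi1-201 start. The gene (ENSMUSG00000036427.5, chr7:34201330-34230336, -) had 7 of 11 start sites open, and the 4 without a peak begin inside the gene. A stronger region lay 3.83 kb upstream, chr7:34234041-34234300, with 15.9 and 13.9 (14.9 ± 1.37). It is over 1 kb from protein-coding start sites, but it covers the start of the non-coding RNA Gm12762 and lies 77 bp from that of Gm12758. Of its 260 bases 83 were in footprints of both libraries. These hold the word CCCCGCCC at bases 136 to 143, with a GC box (GGGCGG) on the other strand inside it, and the AP-1 and NF-E2 word TGAGTCA, on the other strand, at bases 218 to 224. The next distal region, chr7:34166961-34167140, had 1.82 and 1.11.

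Pfkl, the liver and red cell subunit of phosphofructokinase, which commits sugar to glycolysis, had 20.8 and 17.3 (19.0 ± 2.49, SD, n = 2). The percentiles were 94.4 and 94.1. The peak, chr10:78009701-78009900, covered the Pfkl-201 start, and a separate region in the gene, chr10:78009301-78009480, had 14.9 and 10.5. The gene (ENSMUSG00000020277.10, chr10:77986947-78010083, -) had 4 of 8 start sites open. Red cell phosphofructokinase also contains the muscle subunit, and the promoter of its gene Pfkm had 7.25 and 5.56, while that of Pfkp, the platelet subunit, had 6.25 and 4.32. Both values of Pfkl were above both values of either isozyme. Its strongest distal region, chr10:78018861-78019020, had 4.96 and 3.69, and the next, chr10:77984781-77984960, in the neighbour 1810043G02Rik, had 2.61 and 2.02.

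Aldoa, the aldolase of muscle and red cells, splits fructose 1,6-bisphosphate, and had 10.5 and 9.98 (10.2 ± 0.354, SD, n = 2), the closest pair of libraries in proportion. The peak, chr7:126799181-126799400, covered the start of Aldoa-201, which codes for 364 amino acids. Aldoa-203 codes for as many and begins at chr7:126800447, where a peak was found in replicate 1 alone, with a signal of 0.780. The symbol stands for 2 gene records (ENSMUSG00000030695.16 and ENSMUSG00000114515.2, together chr7:126795234-126809108, -), and the start of the second, at 126809108 in an intron of Fam57b, had 3.6 and 2.84. In all 11 of 13 start sites were open. Aldoc, the brain isozyme, had 4.88 and 3.86. The strongest distal region, chr7:126780081-126780260, lies in an exon of Ypel3 and had 8.67 and 6.56, and the next, chr7:126821921-126822120, had 2.47 and 2.69.

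Gapdh, which makes 1,3-bisphosphoglycerate, had 10.2 and 8.44 (9.31 ± 1.22, SD, n = 2) at chr6:125165581-125165760. The peak covered the starts of Gapdh-205, Gapdh-207, Gapdh-208, Gapdh-209 and Gapdh-211. It lay 13 to 192 bp downstream of the start of Gapdh-203, which codes for 333 amino acids. The most upstream start, at 125166467, of transcripts that code for 359 amino acids, had its own region, chr6:125166481-125166697, with 1.32 and 1.18. The gene (ENSMUSG00000057666.18, chr6:125161715-125166467, -) had 9 of 10 start sites open. It had a single distal region, chr6:125137125-125137266, in the neighbour Nop2, with 0.844 and 0.834. Gapdhs, the sperm isozyme, had 0.548 and 0.679.

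Bpgm makes and breaks down 2,3-bisphosphoglycerate and is mostly a red cell enzyme. Its promoter had 16.6 in replicate 1 and 18.5 in replicate 2 (17.5 ± 1.33, SD, n = 2), at the 87.9th and 95.4th percentile, and it was the highest of the 10 genes in replicate 2. All 5 start sites of the gene (ENSMUSG00000038871.5, chr6:34476207-34505613, +) were within 1 kb of the same region, chr6:34476161-34476360. It is the one gene of the 10 with no other protein-coding gene in its window. Of its 7 distal regions 6 were in both stricter lists. The strongest lay 4.54 kb upstream and had 4.78 and 4.51 (4.64 ± 0.192), and the next, chr6:34486341-34486600 in an intron, had 2.58 and 1.85. In the printed upstream region, the word AGATAA is found on the other strand at bases 74 to 79, and all 6 bases are inside a footprint of both libraries. The same region holds the E-box CACGTG at bases 39 to 44, with no base footprinted in both libraries. The 150 bases before the start hold 2 CCAAT words, of which the one at bases 117 to 121 touches a footprint of both libraries by 1 base.

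Eno1, the widely used enolase, had 12.8 and 11.7 (12.2 ± 0.757, SD, n = 2) at chr4:150237041-150237240. The region ends at the Eno1-203 start and lies downstream of the start of Eno1-202, which codes for 434 amino acids. The gene (ENSMUSG00000063524.13, chr4:150236721-150248879, +) had 7 of 10 start sites open. Eno1-201, which codes for 366 amino acids, had no peak within 1 kb of its start. Eno2, the neuronal enolase, had a peak of replicate 1 alone (0.624), Eno3, the muscle enolase, had 1.2 and 1.13, and Eno4 had 2.52 and 3.40. The strongest distal region of Eno1, chr4:150240181-150240380 in an intron, had 4.45 and 3.25, and the next, chr4:150257301-150257500, 2.31 and 1.88.

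Pyruvate kinase makes the last ATP of glycolysis. Pklr has 2 first exons, and the longer protein, from the upstream one, is the red cell form, while the shorter is the liver form. In these data Pklr had the lowest promoter signal of the 10 genes, 1.56 in replicate 1 and 1.21 in replicate 2 (1.38 ± 0.247, SD, n = 2), at the 24.5th and 23.0th percentile. The one shared promoter region, chr3:89136581-89136764, begins 9 bp downstream of the start of Pklr-202, which codes for 543 amino acids, and 439 bp downstream of the start of Pklr-201, which codes for 574. Around the Pklr-202 start, 125 and 115 of the 201 bases within 100 bp were listed at an FDR under 0.05. Around the Pklr-201 start the libraries differed, with 156 bases in replicate 1 and 11 in replicate 2. A weak peak of replicate 1 alone, chr3:89136032-89136197 with a signal of 0.844, covered this start in the longer list, and no peak of replicate 2 did. All 5 start sites of the gene (ENSMUSG00000041237.12, chr3:89136142-89146784, +) counted as open because of the single shared region. Pkm, which encodes the isozyme of most other tissues, had 4.72 and 5.69, and both values were above both values of Pklr.

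A stronger region, chr3:89132381-89132660, lay 3.62 kb upstream of the Pklr-201 start, with 5.16 and 3.56 (4.36 ± 1.14), and is named for its position after the values were seen. By signal it was exceeded among distal regions of the window by chr3:89196541-89196800 with 8.19 and 4.64, and by chr3:89087581-89087760, in exons of Rusc1 and Gm43738, with 6.78 and 4.84. The window holds 7 other protein-coding genes, and which gene a distal region acts on was not tested. Of the 280 bases printed for the upstream region 51 were in footprints of both libraries. Of the 150 bases before the Pklr-201 start 7 were in a footprint of replicate 1 and 0 in one of replicate 2, and before the Pklr-202 start 0 in either. In the upstream region the GATA word TGATAA is on the other strand at bases 129 to 134, with no base footprinted in both libraries. The stretch before the Pklr-201 start holds the GATA word AGATAA at bases 116 to 121.

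The stretches before the Pklr-201 and Hk1-205 starts share the run gcagataagaccag, 14 bases around this GATA word, starting at base 114 of the first and base 33 of the second, in the same orientation. It was the longest run shared by any of the 28 pairs of printed stretches, and the next longest was 10 bases. It was noticed after the sequences were seen, and it occurs 26 times in the chromosomes of GRCm38 on both strands together. In both genes it lay outside the bases footprinted in both libraries.

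Lactate dehydrogenase regenerates NAD+ by turning pyruvate into lactate, and Ldha encodes its muscle-type subunit. Its promoter had 6.05 and 5.08 (5.57 ± 0.685, SD, n = 2), at percentiles of 50.5 and 51.2. The peak, chr7:46845701-46845900, covered the Ldha-202 start, and a weaker region over the Ldha-201 start, chr7:46846921-46847220, had 1.52 and 1.45. Both transcripts code for 332 amino acids, and 11 of the 13 start sites of the gene (ENSMUSG00000063229.15, chr7:46841475-46855627, +) were open. Of the 150 printed bases before the Ldha-202 start 72 were in footprints of both libraries, the most of the 4 stretches of that length. They contained 3 GC boxes, all of them wholly or mostly in footprints. The core of the hypoxia element, ACGTG, was found at bases 68 to 73 as part of the palindromic E-box CACGTG and on the other strand at bases 82 to 86. None of these bases was footprinted in both libraries. Ldhb, the heart-type subunit, had 0.887 and 0.813, and Ldhc, the testis gene next to Ldha, was without a promoter peak. The distal regions of Ldha were weak, the strongest being chr7:46833321-46833560 with 1.04 and 1.02 and chr7:46830881-46831060 with 1.07 and 0.850.

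Motif words were counted in windows of 300 bp centred on the strongest promoter region of each gene, and beside them in the same windows of all 13470 open promoters. GC boxes (GGGCGG) were found in 9 of the 10 windows, all but Pklr, against 70.6% of all. CACCC words (CCACACCC, CCACGCCC, CCCCACCC or CCCCGCCC, the last of which contains a GC box) were found in 6 windows, against 50.3%. CCAAT was found in 5 (Hk1, Hk2, Aldoa, Eno1 and Bpgm), against 37.1%, and the hypoxia core ACGTG in 5 (Hk2, Gpi1, Aldoa, Gapdh and Ldha), against 26.4%. The E-box CACGTG was found in Ldha alone, against 10.5%, and the RUNX word TGTGGT in Hk2 alone, against 11.1%. The GATA words (against 6.64%), the ETS word CCGGAAG (19.2%), the PU.1 word GAGGAAGT (2.86%) and TGAGTCA (2.61%) were in 0 of 10. With 10 windows these counts are a description of the genes, and each base can belong to several words.

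In the 55 distal regions around the genes the GATA words were found in 17 windows of 300 bp, or 30.9%, against 25.8% of all 36326 distal regions. CACCC words were in 16 (29.1%, against 20.7%), GC boxes in 14 (25.5%, against 16.1%), ACGTG in 12 (21.8%, against 17.6%), and TGAGTCA in 7 (12.7%, against 6.99%). The E-box was in 5 (9.09%, against 6.15%) and the PU.1 word in 4 (7.27%, against 5.24%). Lower shares than over all distal regions were found for CCAAT in 14 (25.5%, against 29.3%), the RUNX word in 11 (20%, against 25.2%) and the ETS word in 1 (1.82%, against 3.37%). In the merged footprints of both libraries near start sites, 17 of 77 held a GC box, or 22.1% against 18.5%, and 11 held a CACCC word, or 14.3% against 12%. CCAAT was in 2 (2.6%, against 2.92%), ACGTG in 1 (1.3%, against 1.65%) and the RUNX word in 1 (1.3%, against 0.464%). The ETS word (1.54% over all), the E-box (0.778%), TGAGTCA (0.0613%) and the PU.1 word (0.0464%) were in 0 of the 77.

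The CpG content of the promoters also differed. The observed over expected ratio of CpG in the 1 kb on each side of the start site nearest the strongest region had a median of 0.619 over all open promoters. It was 0.704 in Hk2, 0.652 in Eno1, 0.634 in Aldoa and 0.604 in Ldha, 0.544 to 0.553 in Gapdh, Pfkl, Gpi1 and Bpgm, and 0.474 in Hk1. Pklr had 0.223, at the 4.14th percentile of open promoters, and was the one gene of the 10 without a GC box. Several of these genes have processed copies elsewhere in the genome, where reads can be misplaced. Of the 28 promoter regions of the 10 genes 24 held no word of 31 bases that occurs more than once in the chromosomes, which includes the strongest region of each gene except Gpi1 (6.00% of words). The others were regions of Aldoa (19.6%) and Gapdh (16% and 2.22%) away from the strongest peak. The 1 kb on each side of 2 internal starts of Gapdh had 57.1% and 37.7% repeated words, and the second of these was without a peak in either library.

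Around the genes, 124 shared regions lay in the gene bodies and 50 kb on each side. Of these 28 lay within 1 kb of an own start site, 41 within 1 kb of a start of another protein-coding gene, and 55 were distal, 30 of them intergenic, 17 in introns and 8 in exons. Distal regions in both stricter lists numbered 38. The density was 4.68 regions per 100 kb around Hk2 and 14.9 around Aldoa, with a median of 9.91, against 4.52 over all genes. Gene density differs with it, from 0 other protein-coding genes around Bpgm and 1 around Hk2 to 9 around Aldoa, and its part was not tested. In 3 genes, Gpi1, Hk2 and Pklr, a distal region had a higher signal in both libraries than every own promoter region. These are the 3 genes with the lowest promoters, and a low promoter is more easily exceeded, so the match is in part built in.

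**Figure D3:**
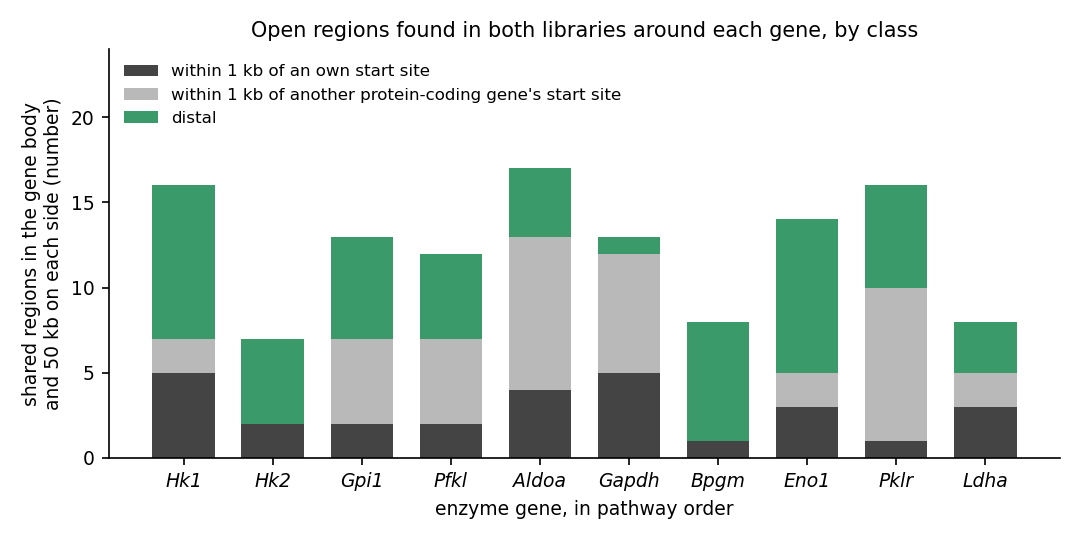
Number of shared regions (vertical axis) in the gene body and 50 kb on each side of each gene, stacked by class. Bpgm has 7 distal regions of 8, and Gapdh 1 of 13.

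**Figure D4:**
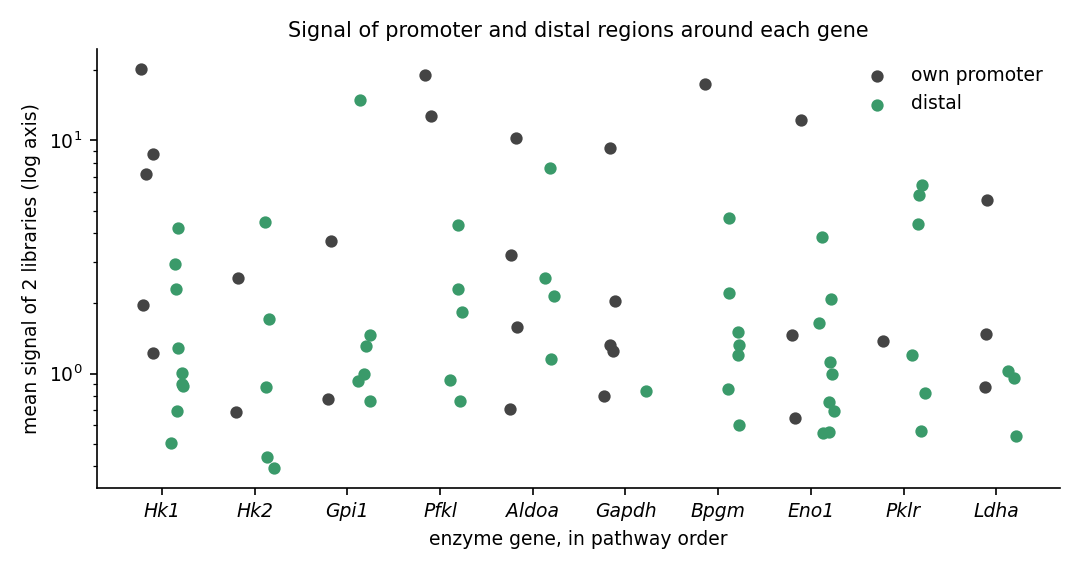
Mean signal of both libraries on a log axis for each own promoter region (grey) and each distal region (green) of the 10 genes. Distal regions of Gpi1, Hk2 and Pklr lie above the promoter regions, and the high Gpi1 point is the region at the start of the non-coding RNA Gm12762.

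Beside the shared regions there were 15 peaks of replicate 1 alone and 21 of replicate 2 alone. Their highest signals were 1.08 and 0.842, and 11 and 15 of them were below the median signal of their library. On the log2 scale, the ratio of replicate 1 to replicate 2, centred on the median of all shared regions, ran from -0.59 to 0.70 at the 124 regions with a median of 0.09. The middle 95% of all shared regions ran from -0.72 to 0.59. Its upper end was exceeded by regions near Eno1 (0.701), Bpgm (0.7), Pfkl (0.675) and Pklr (0.656). The one near Pklr is its strongest distal region, chr3:89196541-89196800.

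Among 29 other genes of glycolysis and its regulation 23 were open (79.3%), against 61.5% of all genes and 84.7% of those with at least 4 start sites. In the stricter lists 21 of the 29 were open, against 56.4% of all genes. The strongest were Adpgk, an ADP-dependent glucokinase, with a mean of 16.4, the phosphoglycerate mutase Pgam1 with 16.2, and the lactate transporter Slc16a3 with 12.7. Hk3, Pgk2 and Ldhc were among those without a promoter peak, and Pgam2 and Eno2 had a peak of 1 library. The median over the 29 was 3.98 and 3.86, below the 10.3 and 9.21 of the 10 genes. The 29 include isozymes of liver, muscle, brain and germ cells.

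All 15 genes of the pentose phosphate pathway and of protection from oxidants, which share glucose 6-phosphate with glycolysis, were open, and their median signal was 13.5 and 10.2. Over all protein-coding genes 61.5% were open and 56.4% in the stricter lists, and of genes with at least 4 start sites 84.7% were open. The 15 genes had a median of 4 start sites, against 3 over all genes. The strongest were the superoxide dismutase Sod1 with a mean of 19.1, the transaldolase Taldo1 with 18.3 and the glutathione synthetase Gss with 17. All 6 nucleotide enzymes known from red cells, with a median of 7 start sites, were open, 5 of them in the stricter lists. Their median signal was 7.44 and 6.81. The purine nucleoside phosphorylase Pnp, with a mean of 22.9, the adenosine kinase Adk, with 12.7, and the pyrimidine nucleotidase Nt5c3, with 11.8, were the strongest.

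**Figure D5:**
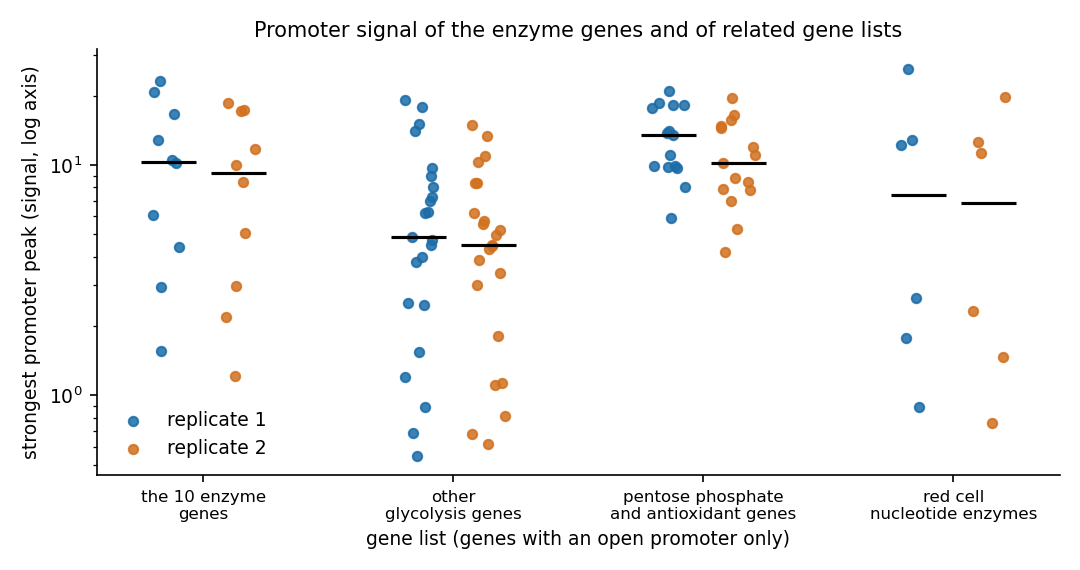
Strongest promoter peak on a log axis for the open genes of 4 lists, with 1 point per gene and library and a bar at the median of the open genes. The 15 pentose phosphate and antioxidant genes all lie above 4, while the other lists reach values below 2.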

How the data were processed

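DNase-seq values of 2 spleen libraries of 1 group were used as deposited, on mm10 per the labels. The authors deposited a signal per peak, whose scale is not stated, with peaks listed for each library alone, footprints with an FDR (q-value) of 0.01 in every line, and stretches of bases with an FDR (q-value) under 0.05. Neither the aligner, nor the callers, nor the placing of CAST/EiJ reads is given in the sources used here. Peaks and footprints of the libraries that overlapped by 1 bp were merged as shared. Start sites were those of all transcripts of protein-coding genes in GENCODE vM21, genes of 1 symbol were joined, and mitochondrial genes were left out. Percentiles are among the 14064 and 14155 genes with a promoter peak in replicate 1 and replicate 2. The count of listed bases within 100 bp of start sites was added after the data were seen. The overlap step was tested on simulated intervals. No test across genes was run. The 10 genes, the lists, the markers and the words were chosen with earlier results of these data known. Named were all 10 genes with their 2 strongest distal regions, isozymes of their steps, and of other lists the 3 strongest and those without a peak. Some genes that this rule names are not reported here. The closing section gives the alternatives, which were the stricter lists, each library alone, other windows and flanks, reciprocal overlap, stronger peaks and coding transcripts only. Calculations used Python 3.11.15, numpy 2.4.6 and pandas 2.3.3.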

Additional observations from a re-analysis of the deposited data

How the results depend on the processing

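All 10 promoters were open in the stricter lists, in each library alone, with windows of 500 and 2500 bp, with 50% reciprocal overlap, with peaks at or above the median signal and with start sites of coding transcripts only. Open start sites numbered 61 to 74 over the other alternatives and 45 with coding transcripts only, which leaves fewer start sites. The 124 shared regions became 61 with flanks of 10 kb and 205 with flanks of 100 kb, by construction. The 77 footprints of both libraries became 124 in replicate 1 alone and 130 in replicate 2 alone. The signals recomputed in 500 and 2500 bp windows equalled those at 1 kb in 20 of 20 cases, to the digits given. That they stayed within 1 SD is therefore no further check. Depth is unknown, so a start site without a peak is one not found open by the lists.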
